A study of Mus musculus with 198 samples.

Results

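Enhancers that are methylated at CG sites and also rich in CA methylation were examined in the cortex of mice that lack 1 copy of Dnmt3a. The enhancers were chosen by their measured levels: one was taken when all 16 animal values were present, when its mean CG methylation (mCG) over 8 animals was 40% or more and when its mean CA methylation (mCA) over the same animals was 3% or more. This gave 3357 of 32600 enhancers with complete values, or 10.3%. Of 32614 enhancers in all, 14 had a missing value, and 1 of these would have passed both limits on the values it had. The CG limit removed little: 3420 complete enhancers reached 3% mCA, and 63 of them had less than 40% mCG. The mean weighed both genotypes equally, so the levels described here were used to choose the enhancers and the difference between genotypes was not, although a difference in percentage points can be larger where the chosen level is higher.

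Each value is the percentage of cytosines called methylated in 1 enhancer of 1 animal, from whole-genome bisulfite sequencing of cortex, with the label giving a coverage of 6.4 to 7.8 genome equivalents per library. The groups were 4 wild-type (WT) and 4 heterozygous knockout (hKO) C57BL/6J mice aged 8 weeks, with 2 males and 2 females in each. WT animals were 046-1 and 695 (males) and 047-2 and 651-3 (females), and hKO animals were 046-2 and 694 (males) and 047-1 and 651-2 (females). Sex coincided in the labels with a difference in sequencing instrument, so that these cannot be told apart, but both were balanced over genotype. The number of cytosines read per enhancer is unknown, and no counting interval was computed. In whole cortex, a lower fraction in every cell and a different mix of cells cannot be told apart. Methylation at Dnmt3a itself does not check the deletion.

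DNMT3A is a DNA methyltransferase that writes methyl groups on cytosine without a methylated template. In maturing neurons it places methylation at CA sites, the commonest methylated context outside CG. Methylation at CG sites is copied at cell division by another enzyme, DNMT1, and active enhancers are known for low mCG.

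Mean mCA was lower in hKO than in WT at 3353 of the 3357 enhancers (99.9%, against 97.8% of all enhancers) and higher at 4. Averaged over the 3357 enhancers, mCA was 4.83% in WT animal 047-2, 5.22% in 651-3, 4.33% in 046-1 and 4.42% in 695. In the hKO it was 2.62% in 047-1, 2.86% in 651-2, 2.48% in 046-2 and 2.47% in 694. The lowest WT animal lay 1.47 points above the highest hKO animal, and in both genotypes the 651 female had the highest mean. The group means were 4.70% ± 0.409 (SD, n = 4) in WT and 2.61% ± 0.181 (SD, n = 4) in hKO, a difference of -2.09 points (SE 0.224), which left 55.5% of the WT level. No p-value is given for an average over enhancers chosen with these data.

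**Figure D1:**
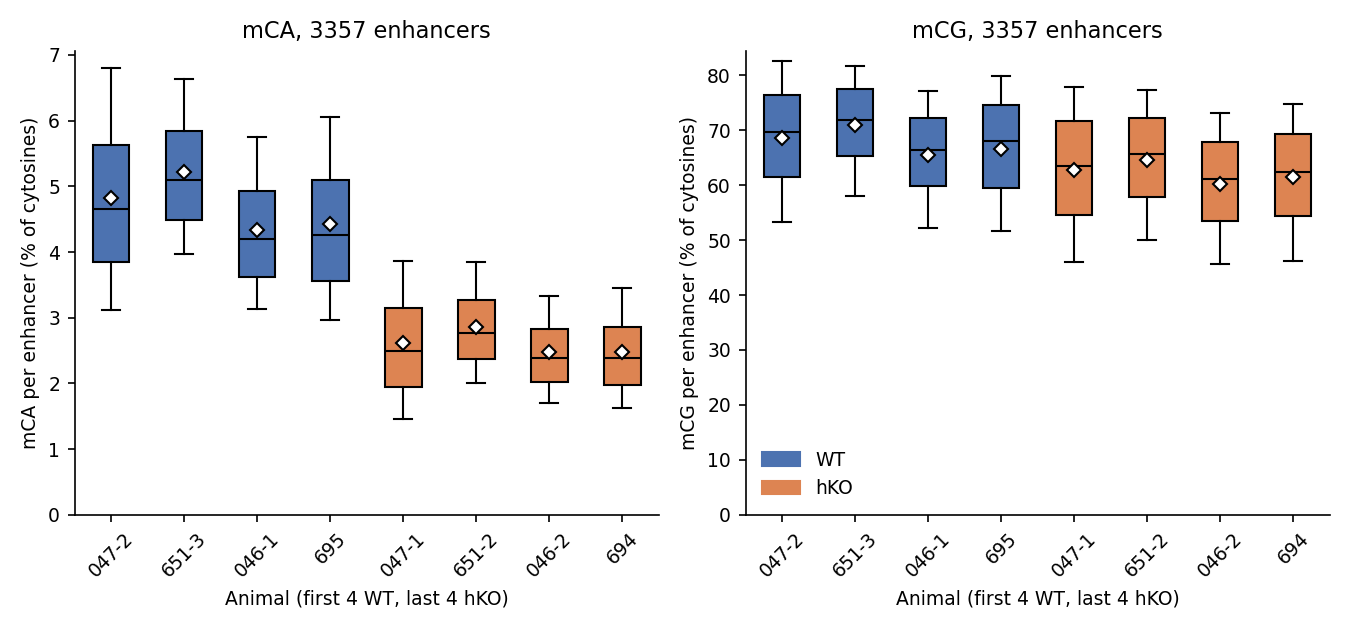
Box plots of mCA (left) and mCG (right) over the 3357 enhancers in each animal, in percent of cytosines; boxes span the quartiles, lines are medians, diamonds are means and whiskers run from the 10th to the 90th percentile. The mCA means of the 4 hKO animals lie between 2.47% and 2.86%, below the WT range of 4.33% to 5.22%, and the mCG means are separated by 0.814 points.

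mCG was also lower, by a smaller share of its level. Its mean over the enhancers was 68.6% in WT animal 047-2, 70.9% in 651-3, 65.4% in 046-1 and 66.6% in 695. In the hKO it was 62.7% in 047-1, 64.6% in 651-2, 60.2% in 046-2 and 61.5% in 694. These animal means did not overlap, but the gap was 0.814 points, less than the spread within either genotype. The group means were 67.9% ± 2.39 (SD, n = 4) in WT and 62.3% ± 1.87 (SD, n = 4) in hKO, a difference of -5.63 points (SE 1.52), and 91.7% of the WT level was kept.

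Each hKO animal was also set beside 1 WT animal of its sex, by the number that starts the title where it was shared (046, 047 and 651) and otherwise 694 beside 695, which share no number. The hKO animal had 57.3% of the WT animal's mean mCA for 046, 54.2% for 047, 54.8% for 651 and 55.9% for 694 and 695. The mCG difference within these couples was -5.21, -5.93, -6.26 and -5.13 points in the same order. The labels do not say what the number stands for, so the couples are a way of listing animals and are not taken as matched samples.

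Single enhancers were tested with limma, a linear model whose variances are moderated across the whole enhancer table, on all 32600 enhancers, with Benjamini-Hochberg adjustment over all of them and a threshold of 0.05. In mCA, 2658 of the 3357 enhancers (79.2%) fell, against 48.9% of all enhancers, and 0 rose, against 0.00613%. At an unadjusted p under 0.05, 2913 were lower (86.8%, against 61.1% of all enhancers) and 0 higher (against 0.0153%). The share called lower went with the level. It was 12.4% in CG-methylated enhancers with a mean mCA under 1%, and 72.8% from 2.5 to 3%, just below the limit. For each enhancer the absolute difference between genotypes was divided by its pooled SD between animals. The median of this ratio was 2.54 in the 3357 enhancers and 1.79 over all enhancers. Without hKO animal 694, 1760 enhancers passed, and without hKO animal 046-2, 1652. Over all enhancers the median difference was -0.944 points and the median share of WT mCA kept was 55.96%. When each library's median was subtracted, 32 of the 3357 enhancers passed, all lower, and when each library was divided by its mean over all enhancers, 0 passed in limma (unadjusted p under 0.05 in 106 lower and 63 higher). With 2 animals per genotype, 0 passed in limma in males alone (2084 lower at an unadjusted p under 0.05) or in females alone (2240 lower). For these alternative fits no share over all enhancers is given. Whether the changes in count are particular to the mCA-rich enhancers is therefore not shown.

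In mCG, limma called 0 enhancers in either direction, as it did for all enhancers (0%). At an unadjusted p under 0.05, 729 of the 3357 were lower (21.7%, against 12.8% of all enhancers) and 9 higher (0.268%, against 0.632%). The smallest adjusted p in limma was 0.224. The mean was lower in hKO at 2962 enhancers (88.2%, against 78.6% of all enhancers) and higher at 395. The difference was 10 points or more downward at 596 enhancers (17.8%, against 12.3% of all enhancers). It was 5 points or more downward at 1816 (54.1%, against 40.1%), and 519 lay within 2 points of 0 (15.5%, against 22.8%). Its median was -5.45 points, with the 10th percentile at -11.9 and the 90th at 0.56.

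Separation of the animals was counted without a model. In mCA, each of the 4 hKO animals was under the lowest WT value at 2176 of the 3357 enhancers (64.8%), against 41.3% of all enhancers. At 596 more, 3 hKO animals lay below the lowest WT animal, at 299 there were 2, at 171 there was 1 and at 115 there were 0. In mCG, full separation was seen at 453 enhancers (13.5%, against 8.25% of all), and the other counts were nearly even: 647 with 3 animals, 744 with 2, 746 with 1 and 767 with 0. Each of the 4 hKO animals was over the highest WT value in mCG at 6 enhancers (0.179%, against 0.23% of all) and in mCA at 0 (against 0.00307% of all). In the same libraries, both contexts were separated downward at 355 enhancers (10.6%, against 4.56% of all), which is 78.4% of the 453 separated in mCG and 16.3% of the 2176 separated in mCA. Just below the mCA limit, from 2.5 to 3%, CG-methylated enhancers were fully separated downward at 58.3% in mCA and at 11.8% in mCG.

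**Figure D2:**
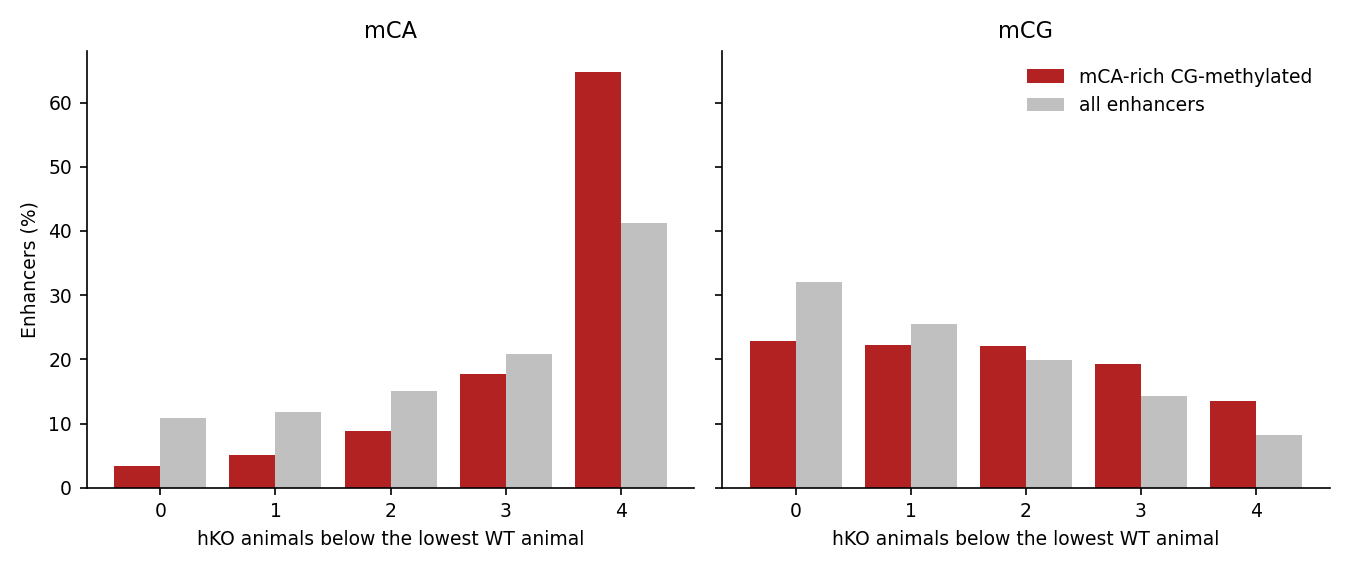
Bars give the percentage of enhancers in which 0, 1, 2, 3 or 4 hKO animals lay below the lowest WT animal, for mCA (left) and mCG (right), in the 3357 mCA-rich CG-methylated enhancers and in all 32600 enhancers. In mCA the bar at 4 animals holds 64.8% of the former, and in mCG it holds 13.5%.

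The exceptions were spread unevenly over animals. Where 3 of 4 hKO animals lay below the lowest WT animal in mCA, the remaining animal was 047-1 at 222 enhancers, 651-2 at 204, 694 at 90 and 046-2 at 80. Values of 047-1 were also the most spread, with an SD over the enhancers of 1.05 points, against 0.697 to 0.764 in the other hKO animals. Where 3 of 4 WT animals lay above the highest hKO animal, the remaining animal was 695 at 295 enhancers, 046-1 at 220, 047-2 at 197 and 651-3 at 18. WT female 651-3, which had the highest mean, lay above every hKO animal at 3191 enhancers (95.1%, against 90.1% of all enhancers). In mCG the remaining animal was most often 651-2 among the hKO (298 of 647) and 046-1 among the WT (331 of 758). Leaving out 1 animal can only keep or raise the count of separated enhancers, so the direction of change was fixed. The counts were then 2194 to 2471 in mCA and 481 to 784 in mCG. The largest change was the mCG count of 784 without WT animal 046-1. Without WT animal 695 the mCG count was 706, and without hKO animal 651-2 it was 751. No share over all enhancers is given with 1 animal left out, so whether these changes are particular to the mCA-rich enhancers is not shown.

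In the 4 couples listed above, which the labels do not give as matched animals, the hKO animal had the lower mCA in all 4 at 2781 enhancers (82.8%, against 64.9% of all enhancers). It was lower in 3 couples at 509, in 2 at 66 and in 1 at 1. In mCG the hKO animal was lower in all 4 couples at 1241 enhancers (37.0%, against 24.6% of all enhancers), in 3 at 1255, in 2 at 645, in 1 at 190 and in 0 at 26.

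The share of WT mCA that an enhancer kept was similar across the class. Its median was 55.6%, the quartiles were 49.3% and 62.1%, and 2863 enhancers (85.3%, against 74.5% of all enhancers) lay between 40% and 70%. Less than 40% was kept by 180 enhancers, more than 70% by 314, more than 80% by 80 and more than 90% by 17. The median was 56.02% in the 26700 CG-methylated enhancers with less than 3% mCA and 56.01% in the 2543 enhancers with less than 40% mCG, where WT mCA averaged 2.12% and 1.81%. The range over single enhancers was wider in the mCA-poor class, with quartiles of 48.5% and 65.2%.

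**Figure D3:**
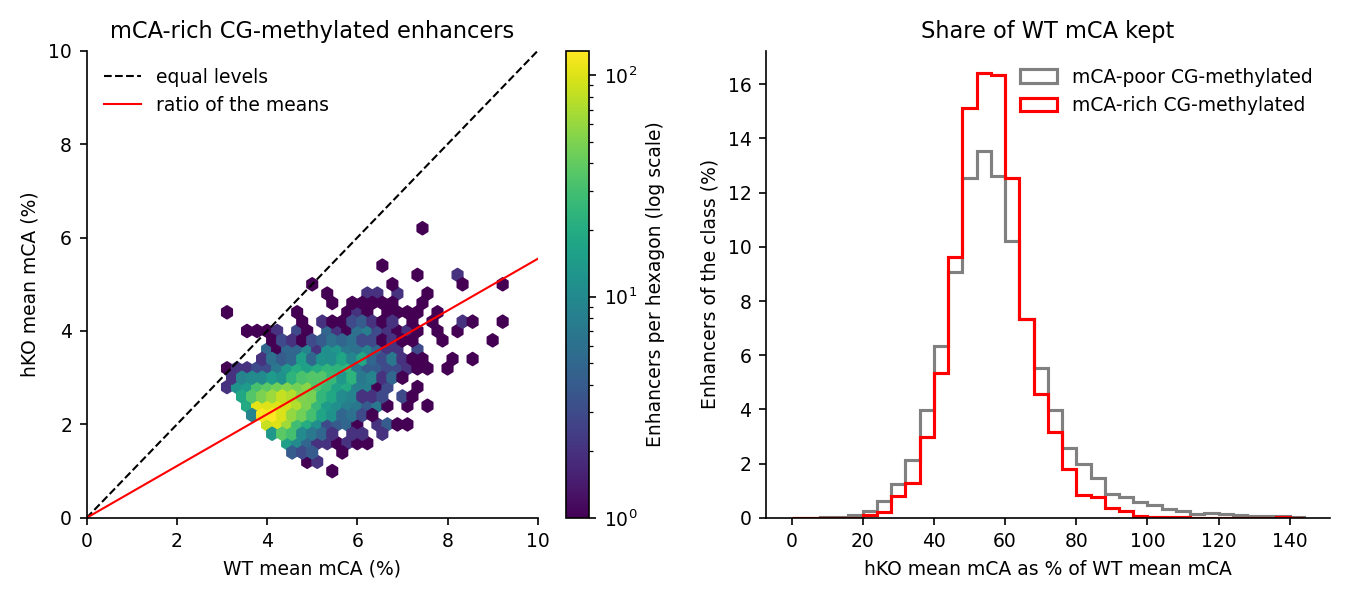
The left panel plots hKO against WT mean mCA for each mCA-rich CG-methylated enhancer, coloured by enhancers per hexagon on a log scale, with a dashed line for equal levels and a red line for the ratio of the means (55.5%). The right panel gives the distribution of the share of WT mCA kept in this class and in the mCA-poor class, with medians of 55.6% and 56.02% and with 73 mCA-poor enhancers beyond the right edge.

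The share kept hardly moved with the level. Among the 1710 enhancers with a mean mCA of 3 to 3.5%, mCA was 4.15% in WT and 2.29% in hKO, and the median share kept was 55.2%. It was 55.3% for the 872 enhancers from 3.5 to 4%, 56.4% for the 661 from 4 to 5%, 60.1% for the 98 from 5 to 6% and 54.9% for the 16 at 6% or more. The difference in points grew over the same bands, from -1.86 to -2.15, -2.48, -2.73 and -3.63. Just inside the limit, the 436 enhancers with a mean of 3.0 to 3.1% had 3.93% mCA in WT and 2.17% in hKO, and just outside it the 511 with 2.9 to 3.0% had 3.81% and 2.09%. At the other limit, the 31 enhancers with 40 to 42% mCG had 4.61% and 2.46% mCA, and the 17 mCA-rich enhancers with 38 to 40% mCG had 4.501% and 2.29%.

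In each animal the mCA-rich enhancers stood at about the same multiple of the mean over all enhancers. This ratio was 2.00 ± 0.0978 (SD, n = 4) in WT and 1.98 ± 0.113 (SD, n = 4) in hKO, with ranges of 1.87 to 2.11 and 1.88 to 2.15 that overlapped almost fully. It was highest in both 047 animals and lowest in both 651 animals. In absolute terms, 2119 of the enhancers (63.1%) still had in the hKO at least the mean mCA that all enhancers had in WT, 2.36%. The hKO mean reached 3% at 647 enhancers (19.3%), while between 3002 and 3328 enhancers reached 3% in single WT animals and between 624 and 1247 in single hKO animals. Of all enhancers, 21.1% to 37.4% reached 3% in single WT animals and 2.12% to 4.59% in single hKO animals. The enhancers were chosen by a 3% limit on a mean that includes these values, so the counts in this paragraph follow in part from the choice.

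In points, the mean mCG difference was -5.63 points here, -3.61 points in the mCA-poor CG-methylated enhancers, where the genotypes overlapped, and -4.90 points in the enhancers with low mCG. As a share of the WT level the order was another one: 91.7% of WT mCG was kept here, 94.3% in the mCA-poor class and 85.2% in the enhancers with low mCG. The excess of mCG over the mean of all enhancers was 6.22 points ± 0.566 (SD, n = 4) in WT, from 5.50 to 6.86, and 4.51 points ± 0.496 (SD, n = 4) in hKO, from 3.99 to 5.17. These ranges did not overlap: each hKO animal had a smaller excess than each WT animal.

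The size of the mCG difference went with mCA at like mCG. Among enhancers with a mean mCG of 60 to 70%, the difference was -1.87 points (SE 1.46) where mean mCA was under 1%, -3.03 (SE 1.42) from 1 to 2% and -4.38 (SE 1.43) from 2 to 3%. In the mCA-rich enhancers of the same mCG it was -5.80 points (SE 1.45) from 3 to 4% and -5.93 (SE 1.64) at 4% or more. From 40 to 50% mCG the corresponding values ran from -3.19 to -7.17 and -9.02 points, and from 50 to 60% from -2.36 to -6.71 and -8.10. At 70 to 80% mCG the difference was -4.27 points from 3 to 4% mCA and -3.96 at 4% or more, and above 80% it was -4.19 and -2.25, so the order did not hold in the highest band there. Each standard error is over animals and holds the spread of whole libraries, which the bands share. No test of the trend was made.

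**Figure D4:**
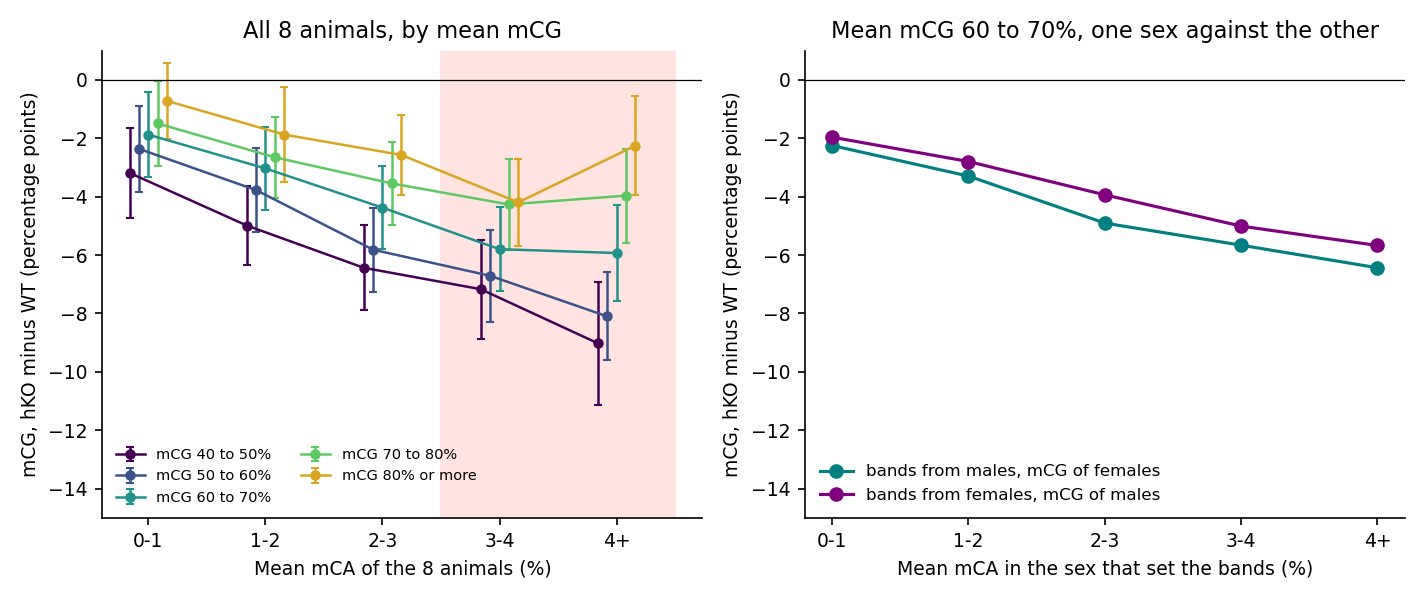
Mean mCG difference (hKO minus WT, percentage points) against the band of mean mCA in percent, by band of mean mCG with bars for the SE over 4 and 4 animals (left, mCA-rich bands shaded), and at 60 to 70% mCG with bands set in one sex and mCG measured in the other (right, no error drawn). At 60 to 70% mCG the difference goes from -1.87 to -5.93 points over the bands on the left, and on the right from -2.25 to -6.43 and from -1.96 to -5.67 points.

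At 60 to 70% mCG, bands set on 1 sex gave the same order in the other sex. No such comparison is given for the other mCG bands, among them those from 70% up, where the order did not hold. With bands of mCA and mCG from the 4 males, the mCG difference of the females at 60 to 70% mCG was -2.25, -3.29, -4.90, -5.66 and -6.43 points from the lowest to the highest mCA band. With bands from the females, it was -1.96, -2.79, -3.94, -5.01 and -5.67 points in the males. The highest bands held 224 and 429 enhancers. In these comparisons no library both set a band and gave a value.

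Among the mCA-rich enhancers themselves, the mCG difference was larger where mCG was lower. It was -7.53 points at the 214 enhancers with 40 to 50% mCG, -6.96 at 669 from 50 to 60%, -5.83 at 1432 from 60 to 70%, -4.18 at 944 from 70 to 80% and -3.52 at 98 with 80% or more. The median share of mCA kept lay between 55.03% and 56.2% in these 5 bands.

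Both sexes showed the difference. In males mCA averaged 4.38% in WT and 2.48% in hKO, and in females 5.02% and 2.74%. The hKO mean was lower in both sexes at 3266 enhancers (97.3%, against 89.5% of all) in mCA and at 2317 (69.0%, against 54.6% of all) in mCG. The mCG difference was -5.17 points in males and -6.09 in females. The interaction of genotype and sex was called by limma at 0 enhancers in mCA and 0 in mCG (0% of all enhancers in both). Its unadjusted p was under 0.05 at 167 (4.97%, against 4.48% of all enhancers) in mCA. In mCG it was under 0.05 at 144 (4.29%, against 4.05%).

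Choosing the enhancers on 1 sex and measuring the other kept choice and measurement apart. The limits applied to the 4 males gave 2715 enhancers, in which the females had 4.67% and 5.21% mCA in WT and 2.55% and 2.87% in hKO, 54.8% of the WT mean. The limits applied to the 4 females gave 4354 enhancers, in which the males had 3.99% and 3.97% in WT and 2.30% and 2.28% in hKO, 57.5% of the WT mean. The hKO mean was lower at 98.3% of the former in females, against 95.3% of all enhancers, and at 98.0% of the latter in males, against 93.6%. Both hKO animals lay below both WT animals at 83.8% in females, against 68.5% of all enhancers, and at 83.0% in males, against 70.1%. The mCG differences were -6.02 and -4.91 points.

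The level of an enhancer in one sex went with its level in the other, and the share kept showed little such relation. Across the 3357 enhancers, mean mCA in males and in females had a Pearson r of 0.508 (Spearman 0.401), in a set that the limit on their joint mean had cut. The share of WT mCA kept in males and in females had r = 0.022 (Spearman 0.044), and the mCG difference r = 0.106 (Spearman 0.119). The difference in mCA and the difference in mCG had r = 0.180 when both came from the same 8 libraries and 0.011 when mCA came from males and mCG from females. Enhancers are not independent replicates, and no relation is read from the values near 0.

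**Figure D5:**
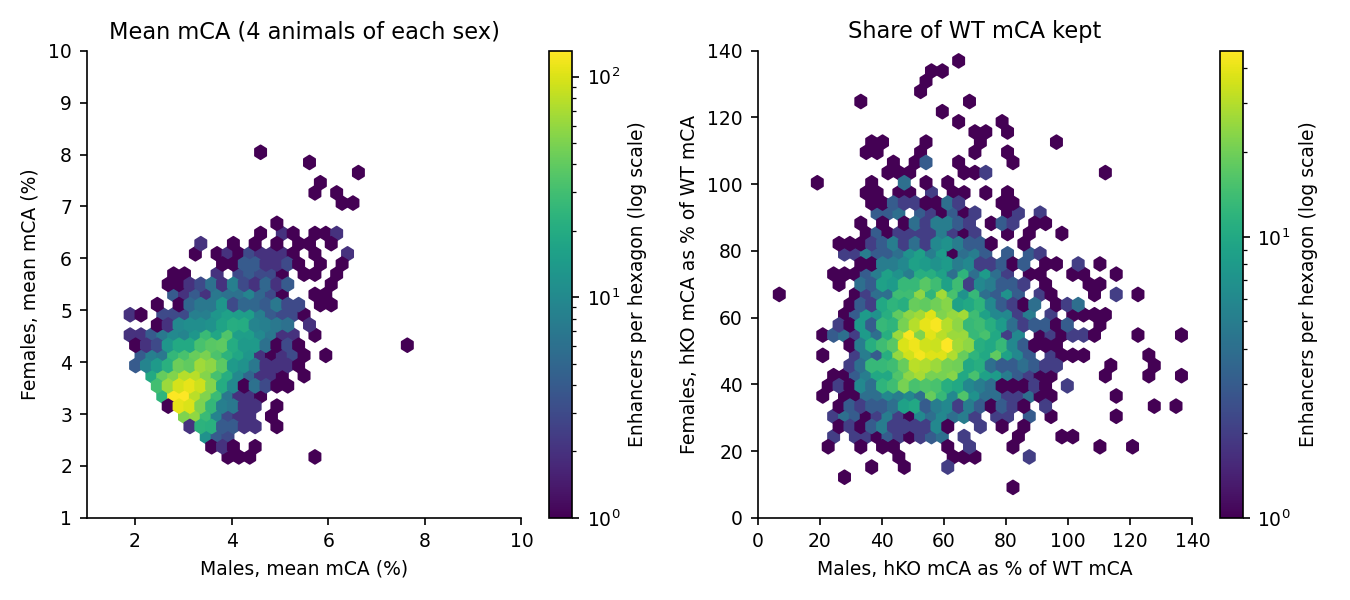
Each mCA-rich CG-methylated enhancer is placed by its value in males and in females, for mean mCA in percent (left) and for hKO mCA as a percentage of WT mCA (right), coloured by enhancers per hexagon on a log scale. The left cloud is elongated (r = 0.508) and its lower edge is set by the limit on the mean, while the right cloud is nearly round (r = 0.022) and 7 enhancers lie outside its axes.

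The enhancers that did not pass in mCA had noisier values. The 699 enhancers without a call had a median SD between WT animals of 1.32 points, against 0.856 in the 2658 that fell, and kept a median of 68.6% against 53.3%. Their mean mCA was 4.32% in WT and 2.96% in hKO, and it was lower in hKO at 695 of them. The median mCG difference was -5.13 points without a call and -5.52 points with one. These values come from the contrast that made the calls and are a description.

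The 4 enhancers with a higher mean mCA in hKO kept between 100.3% and 136% and had adjusted p-values of 0.381 or more in limma. The largest value was at enh.26115, where WT animals had 3.09%, 3.42%, 4.29% and 1.85% and hKO animals 8.57%, 4.18%, 2.11% and 2.39%. The genotypes overlapped and the highest hKO value, in 047-1, made the difference of 1.15 points; without that animal it was -0.27.

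The enhancer with the largest fall among those that passed without overlap was enh.39412. Its mCA was 11.1%, 8.97%, 7.01% and 9.19% in the WT animals and 4.15%, 4.97%, 4.25% and 2.17% in the hKO animals. Every hKO animal lay below every WT animal, and the difference was -5.19 points (SE 1.03, limma adjusted p = 0.0106). Its mCG was 69.7% in WT and 71.9% in hKO, a difference of 2.20 points with an adjusted p of 0.799 in limma.

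The smallest p among them was at enh.41349, which had 6.05%, 6.33%, 6.07% and 4.87% in WT and 1.61%, 1.78%, 1.35% and 1.496% in hKO. The lowest WT value was more than double the highest hKO value. The difference was -4.27 points (SE 0.338, limma adjusted p = 0.0106), and 26.7% of the WT level was kept. mCG at this enhancer was 51.9%, 74.7%, 56.2% and 62.0% in WT and 44.2%, 61.5%, 43.7% and 51.3% in hKO. The difference of -11.1 points lay within animals that overlapped (limma adjusted p = 0.411).

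The largest mCG difference belonged to an enhancer picked out after its values were seen. It had 71.8%, 63.0%, 69.7% and 79.8% in WT and 45.5%, 43.02%, 44.2% and 41.8% in hKO, a difference of -27.5 points without overlap (limma adjusted p = 0.224). Its mCA overlapped between genotypes, at 3.94% in WT and 3.36% in hKO.

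Sites per length were read from the authors' values of methylated cytosines per length, divided by the methylated fraction. The mCA-rich enhancers had a median of 158 CA and 24.0 CG cytosines per 1000 bases, counting both strands, against 157 and 20.9 in the mCA-poor CG-methylated enhancers and 153 and 27.6 in those with low mCG. The quartiles of CG density overlapped, at 19.2 to 29.3 and 15.3 to 27.1 in the first 2 classes. The share of mCA kept was 54.9%, 55.6%, 55.6% and 56.2% by median in 4 equal groups of these enhancers from the lowest to the highest CG density.

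On that scale, CA sites made up most of the difference in methylated cytosines. By the authors' deposited group means, an mCA-rich enhancer held on average 7.48 methylated CA and 16.6 methylated CG cytosines per 1000 bases in WT, and 4.15 and 15.2 in hKO. The difference was 3.34 methylated CA and 1.41 methylated CG cytosines per 1000 bases, and it was larger for CA than for CG at 2955 enhancers (88.0%). The corresponding share was 72.7% over all enhancers and 48.6% in those with low mCG. The mCA-rich enhancers were chosen for high mCA, so a large difference at CA sites follows in part from the choice.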

How the data were processed

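Methylation was analysed as the fraction of cytosines called methylated per enhancer, as deposited by the authors, and multiplied by 100 to give percent. The submitters' processing notes name BS-Seeker2, bedtools and the mm9 build; versions and how enhancers were defined are not given in the sources used here. The authors' deposited methylated cytosines per length (signal per length, group means) served for site density and for methylated cytosines per 1000 bases; the header names a kilobase, but the values matched cytosines per base and were multiplied by 1000. The authors' group-mean fractions were not used. Columns of single animals were matched to the labels by title.

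The enhancer class and the alternatives were chosen with earlier results of these data known. limma 3.58.1 in R 4.3.3 (eBayes with trend) compared 4 hKO with 4 WT libraries on the fraction over 32600 complete enhancers, calling adjusted p-values under 0.05, and was tested on simulated data. Each p-value sets the difference between genotypes against a moderated spread between these animals. That spread also holds the sampling of reads, at a depth that is unknown. Descriptions used Python 3.11.15, numpy 2.4.6, pandas 2.3.3 and matplotlib 3.10.9. Named enhancers were the largest fall and the smallest p among those passing without overlap, and, since no rise passed, the largest rise as a value. Enhancers carry no coordinates in the table used here. Alternatives were each animal left out, each sex alone, other limits, scales and library scalings, sex as covariate, genes fitted together, robust moderation and a replicate block.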

Additional observations from a re-analysis of the deposited data

How the results depend on the processing

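The limma counts in this section cover the chosen enhancers only, with no share over all enhancers beside them. The count of enhancers lower in mCA was 2658 and ranged from 1652 to 2669 with each animal left out. It was 4888 with the mCA limit at 2.5% and 1322 at 3.5%, where the class itself changed size. It was 0 in males alone, 0 in females alone, 0 for enhancers chosen on males and measured in females, 0 for the reverse, 32 with library medians subtracted and 0 with libraries divided by their mean. The first 4 of these hold 2 animals per genotype; for the 2 library scalings the cause was not tested. The logit scale (2644), log2 scale, mCG limits of 30% and 50%, sex as covariate, genes fitted together and robust moderation kept it within 1.5 times. mCA calls upward and mCG calls in both directions were 0 in all 25 alternatives run, with 230 to 1308 lower and 1 to 76 higher in mCG at an unadjusted p under 0.05. The mean mCA difference was -1.92 to -2.22 points with each animal left out and -1.69 when chosen on females and measured in males, and the mean mCG difference was -4.64 to -6.46 with each animal left out. Single falls at enh.39412 and enh.41349 kept their direction in the 21 alternatives and did not pass in the 4 with 1 sex measured. For animals that shared 1 of the 3 title numbers, deviations from the genotype mean correlated across enhancers at 0.004 to 0.041. In mCG the 3 values were 0.030, 0.034 and 0.041, and no other combination of 1 hKO and 1 WT animal exceeded 0.024. Such a correlation does not register a shift of a whole library, so pairing in overall level was not tested. A replicate block on those 6 animals gave 2136 enhancers lower in mCA, against 2045 without it, a fit added after seeing the data. In mCG, 713 were lower at an unadjusted p under 0.05 in limma with the block and 553 without it. The depth per enhancer is unknown and limits single values: 14 of the enhancers (0.417%, against 8.21% of all) were listed at 0 mCA in at least 1 animal. Among single animals, 047-1 was at 0 mCA at 12 enhancers and no other animal at more than 1.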

Other observations

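The mCA-rich enhancers followed one another in the authors' numbering, the meaning of which is not stated, more often than enhancers at large, although 1971 of the 3357 stood alone. The following number was measured for 2420 of the 3357, and a number without a measured enhancer also ended a run or left an enhancer alone. Where the following number was also measured, it was mCA-rich after 35.0% of 2420 mCA-rich enhancers, against 9.70% after any enhancer. The share was 31.1% at a distance of 2 numbers, 19.7% at 10, 11.0% at 100 and 9.67% at 1000. In all, 1386 of the 3357 enhancers (41.3%) stood in runs of 2 or more, and 178 runs held 3 or more. The longest run held 9 enhancers, with a mean mCA of 5.66% in WT and 3.47% in hKO, and its members kept between 41.6% and 83.0% of the WT level. Over all enhancers, mean mCA at neighbouring numbers had r = 0.509 and the share kept r = 0.022, as a description over enhancers from the same 8 libraries.

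Of the 8 animals, 6 also had shallow libraries of whole cortex. The shallow genome-wide mCA of these animals was 2.24%, 2.498% and 2.44% in WT animals 047-2, 046-1 and 695. It was 1.25%, 1.45% and 1.44% in hKO animals 047-1, 046-2 and 694, so the genotypes were separated there too in mCA. Shallow mCG was 71.2%, 73.6% and 75.5% in these WT animals and 68.6%, 70.5% and 73.5% in these hKO animals. In mCG the genotypes overlapped, with hKO animal 694 above WT animal 047-2. The 2 shallow libraries of each 047 animal held identical values and were counted once.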
